A study of Mus musculus with 8 samples.

Results

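Teratoma-derived skeletal myogenic progenitors were compared before and after culture, in 4 of the 8 libraries of the series. The 4 libraries were taken by the label of each sample, 2 from freshly sorted cells and 2 from cells expanded to passage 8, and every gene in the count table was considered. All 4 derive from 1 mouse embryonic stem cell line, E14, that carries an EGFP label. The cells came from 4-week teratomas grown in the irradiated and cardiotoxin-injured tibialis anterior muscle of NSG-mdx4Cv mice, which are immunodeficient and lack dystrophin, and they were sorted as EGFP+ CD31- CD45- α7-integrin+ VCAM-1+. The fresh libraries hold RNA from the sorted cells themselves. For the expanded libraries the sorted cells were grown on gelatin in a myogenic expansion medium and passaged serially. The other 4 libraries, 2 of fresh and 2 of equally expanded satellite cells from adult muscle, served as the comparison for what culture does to the resident stem cell of muscle, and the strain of their donors, and their age beyond adult, are not given in the sources used here.

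In adult muscle the satellite cell lies under the basal lamina of the fiber, marked by the transcription factor Pax7, and stays quiescent until injury. Activated cells express Myf5 and Myod1 and divide as myoblasts, and commitment through Myog leads to exit from the cell cycle, fusion and assembly of the contractile apparatus. Quiescence depends on Notch signaling, on adhesion to the surrounding collagens and laminins, and on receptors such as the calcitonin receptor.

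The table held 24980 gene symbols, of which 17582 passed the filter on low counts and were tested. Totals were 11930961 and 12178480 counts in the fresh libraries and 19198820 and 18342673 in the expanded libraries, and the 45S ribosomal RNA row took between 7.99% and 18.8% of them. The first principal component of the 4 libraries separated fresh from expanded and carried 77.2% of the variance, and the mean distance between the groups was 331 against 195 between the fresh and 138 between the expanded replicates.

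Several genes set to check the myogenic label were present in all 4 libraries. Pax7 was at no less than 1241, Itga7 at no less than 2354 and the satellite cell cadherin Cdh15 at no less than 3152 normalized counts in any of them (a normalized count is the number of reads assigned to a gene divided by the size factor of the library). Chodl, a satellite cell surface gene of the same check, had 2685 and 3525 counts when fresh and 0 and 2.31 after expansion. Among the others, Myf5 and Vcam1 were lower after expansion and Myod1 and Des higher. The fresh libraries also held RNA of other cell classes. The 12 fibro-adipogenic markers, genes of the mesenchymal cells between muscle fibers, summed to 82453 and 93282 normalized counts in the fresh libraries and to 309 and 296 in the expanded libraries. Their defining markers were near 0 after expansion, with Pdgfra at 8.99 and 3.08, Pi16 at 0 and 1.54 and Dpt at 0 and 0. The 2 fresh libraries differed in their blood cell RNA. The 15 haematopoietic markers summed to 12200 normalized counts in fresh replicate 1 and 1330 in fresh replicate 2, against 91.4 and 83.3 in the expanded libraries, and Ptprc, which encodes CD45, had 772 and 98.4 counts when fresh and 0 in both expanded libraries. Endothelial markers summed to 6775 and 2629 in the fresh and to 181 and 253 in the expanded libraries, and epithelial markers to 8649 and 2514 against 21.7 and 25.4. In bulk RNA fewer cells of a type and less RNA per cell cannot be told apart, so a fall reported here can be either.

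**Figure D1:**
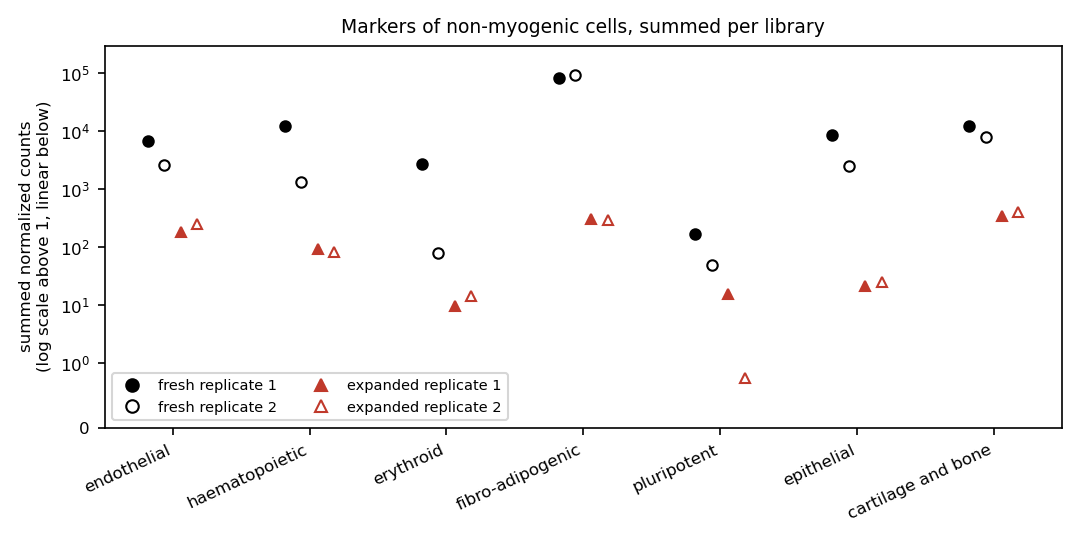
Summed normalized counts (log scale above 1, linear below) of 7 lists of non-myogenic markers in each of the 2 fresh (circles) and 2 expanded (triangles) teratoma-derived libraries. Every plotted list is higher in both fresh libraries than in either expanded library. The haematopoietic and erythroid sums are highest in fresh replicate 1, at 12200 and 2764. The adipocyte and tendon lists, also lower after expansion, are not plotted. Lists with higher sums in both expanded libraries are not plotted either. These are Schwann and neural (8116 and 9713 fresh, 39601 and 37987 expanded), cardiac (774 and 520, 2064 and 2256) and pericyte and smooth muscle (35245 and 37670, 43192 and 43451). A higher sum does not mean that most members rose. Of 17 tested Schwann and neural genes 2 rose and 5 fell, of 7 cardiac genes 3 rose and 2 fell, and of 11 pericyte and smooth muscle genes 2 rose and 7 fell. The 2 pericyte and smooth muscle risers were Acta2 (22590 and 22390 expanded) and Des (15094 and 15564 expanded).

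Expansion changed the transcriptome broadly. With an adjusted p below 0.05 and a level in the higher group more than 25% above that in the lower by edgeR's quasi-likelihood test, 1733 genes (9.86% of those tested) were higher in expanded than in fresh cells and 2848 (16.2%) were lower, and the median over all tested genes was -0.18 on the log2 scale. The falls were the larger changes. Among called genes, 2051 of those lower and 327 of those higher had a fitted change of more than 4-fold, and 696 of the lower genes had at most 3 reads in each expanded library. Genes called lower took up 32.8% and 34.7% of the counts in the fresh libraries and 6.96% and 7.07% in the expanded libraries, whereas genes called higher went from 9.59% and 9.83% to 24.2% and 24.5%. The 95% Wilson intervals of these shares, which cover counting error only, were at most 0.0535 percentage points wide.

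**Figure D2:**
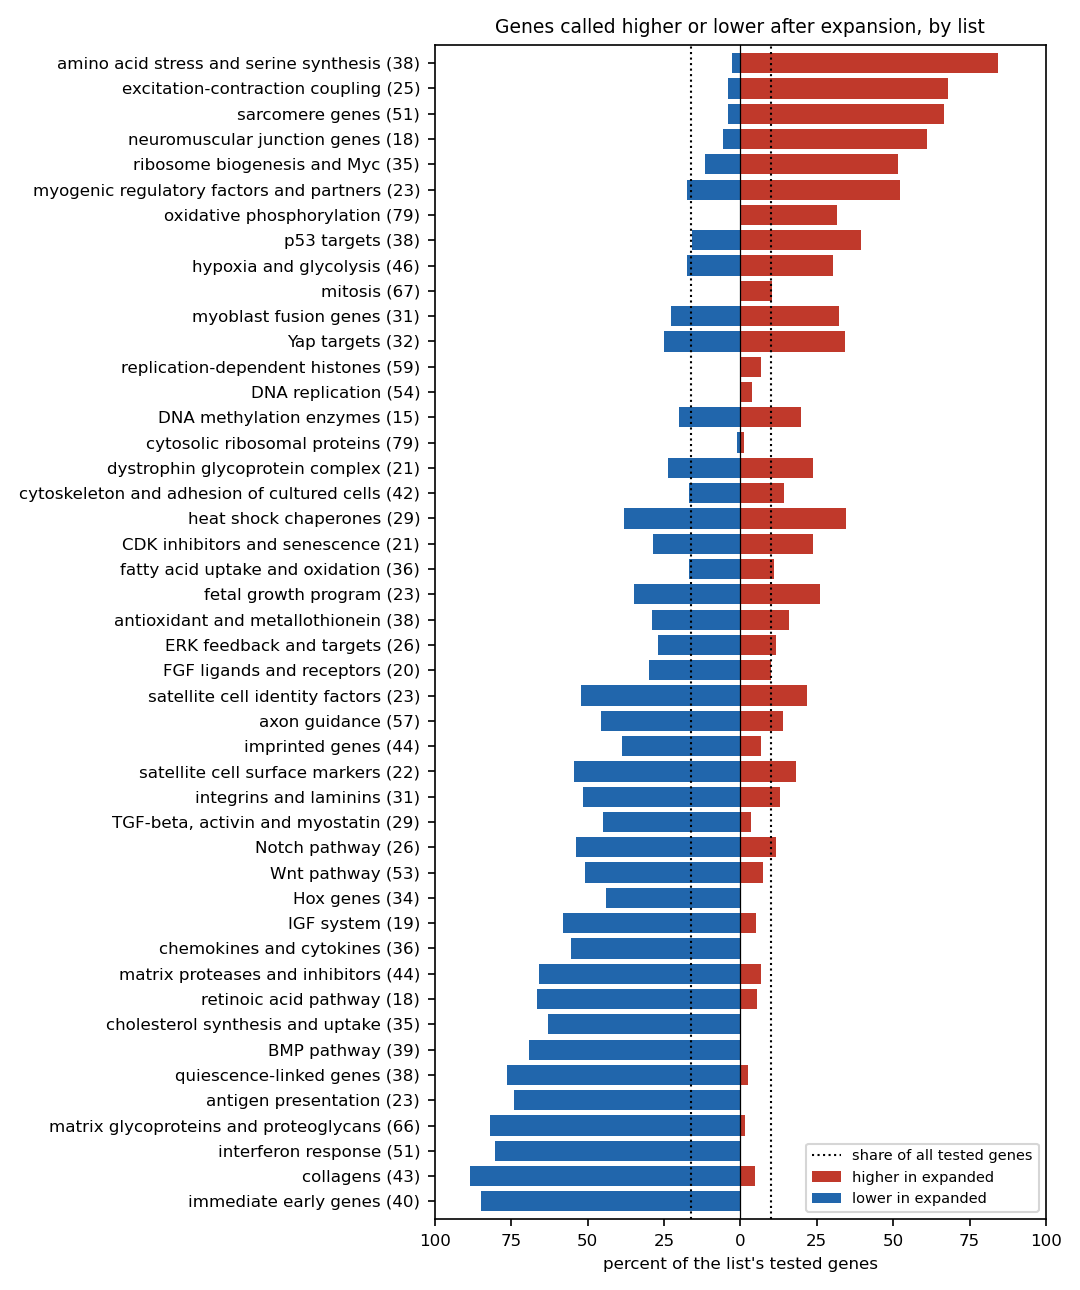
Percent of the tested genes of each list with at least 15 tested genes (number tested in brackets), leaving out cell type markers and Y-linked genes with Xist, called higher (red, to the right) or lower (blue, to the left) in expanded than in fresh teratoma-derived cells. Dotted lines mark the shares over all tested genes, 9.86% higher and 16.2% lower. The longest red bars are those of amino acid stress and muscle contraction genes and the longest blue bars those of collagen, immediate early, matrix and interferon genes.

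Pluripotency genes were low throughout. The 10 listed genes summed to 170 and 49.2 normalized counts in the fresh libraries and to 15.7 and 0.771 in the expanded libraries, and of the 6 tested none was called by edgeR, at an unadjusted p under 0.05 or by DESeq2, while 1 was called lower when only the 4 teratoma-derived libraries were fitted. Nanog, a core pluripotency factor, had 24.7 and 0 counts when fresh and 8.99 and 0.771 after expansion.

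RNA of Pax7 (chromosome 4, 139737062 to 139833528, minus strand, GRCm38) remained detected but was lower after expansion. For the protein, the paper reports similar PAX7 levels by immunoblot before and after expansion of these cells. The gene had 3067 and 4914 normalized counts in the fresh and 1503 and 1241 in the expanded libraries, without overlap between the groups (log2 fold change -1.49 ± 0.27 SE, edgeR adjusted p = 0.00361). Myf5, another myogenic transcription factor, fell further, from 802 and 1366 to 144 and 64.0 counts (-3.33 ± 0.43, edgeR adjusted p = 0.00045). Pax3, the Pax7 paralog of embryonic muscle progenitors, was scarce, with 11.7 and 8.61 counts when fresh and 5.99 and 0 after expansion, and did not pass the test in the fit of all libraries (edgeR adjusted p = 0.26), although it did without expanded replicate 1 (edgeR adjusted p = 0.0192).

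Other identity factors split into genes that were lost and genes that rose. Of the 23 transcription factors linked to satellite cell identity, 12 were lower and 5 higher, with a median of -1.49. Barx2, a homeobox partner of Pax7, went from 534 and 651 counts to 0 in both expanded libraries, at least 260-fold lower, and Msc (musculin) from 501 and 471 to 0, at least 213-fold lower, where the bound sets each expanded library at 3 reads. Meox2, a homeobox gene of the somite, fell from 466 and 337 to 11.2 and 0.771 (-5.97 ± 0.84, edgeR adjusted p = 0.000763). In contrast, Eya4, a transcriptional coactivator, rose from 627 and 616 to 2133 and 2248 (1.87 ± 0.19, edgeR adjusted p = 9.64e-05). The number of risers was 3 without fresh replicate 2 and without either expanded replicate.

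The RNA of surface marker genes also shifted. Protein on the surface was measured in the paper by flow cytometry. There most cells kept α7-integrin through expansion, and most of these carried VCAM-1 as well. Among 22 surface markers of satellite cells, 12 fell and 4 rose, and 2 rose without fresh replicate 1 or without either expanded replicate. Vcam1, which encodes one of the 2 proteins used to sort the fresh cells, fell from 3856 and 5197 to 580.4 and 599.8 counts (-2.88 ± 0.29, edgeR adjusted p = 0.0001). Calcr, the calcitonin receptor of quiescent satellite cells, went from 534 and 801 to 0 in both expanded libraries (at least 293-fold), and Cd34, a sialomucin of quiescent satellite cells and of vascular and mesenchymal cells, from 2377 and 2250 to 10.5 and 13.9 (-7.50 ± 0.43, edgeR adjusted p = 5.19e-06). Itga7, which encodes the other sorting antigen, was at 2354 and 3118 when fresh and 4721 and 5074 after expansion (0.89 ± 0.27, edgeR adjusted p = 0.0362). That call was lost without fresh replicate 1 (0.73, edgeR adjusted p = 0.201), without expanded replicate 1 (0.98, edgeR adjusted p = 0.0927) and without expanded replicate 2 (0.87, edgeR adjusted p = 0.141). Erbb3, a neuregulin receptor, rose from 452 and 218 to 2792 and 2447 (3.02 ± 0.51, edgeR adjusted p = 0.00217), and Ncam1, an adhesion molecule of myoblasts and fibers, from 3870 and 4861 to 8866 and 9166 (1.10 ± 0.19, edgeR adjusted p = 0.00257).

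Genes linked to quiescence were mostly lower. Of 38 such genes, 29 fell and 1 rose, and the median was -2.74 against -0.18 over all genes. The riser was the adhesion gene Cdh2 (N-cadherin), from 985 and 1411 to 2649 and 2773 (1.23 ± 0.23, edgeR adjusted p = 0.00418). Tgfbr3, the type III TGF-beta receptor, had 2624 and 2971 counts when fresh and 0 and 0.771 after expansion. Kdr, the VEGF receptor, went from 504 and 353 to 0 and Rgs5, a regulator of G protein signaling, from 1832 and 1411 to 0. Both are also markers of vascular cells. The summed endothelial markers were lower after expansion, as given above. The pericyte and smooth muscle sum was higher (35245 and 37670 fresh, 43192 and 43451 expanded), although 7 of its 11 tested genes fell and 2 rose. The part of vascular cells in these falls was not tested. Spry1, an ERK inhibitor required for return to quiescence, had 2347 and 2693 counts when fresh and 1107 and 1301 after expansion (-1.01 ± 0.37, edgeR adjusted p = 0.0736), and the groups did not overlap. It passed the threshold when only the 4 teratoma-derived libraries were fitted (edgeR adjusted p = 0.00114) and in DESeq2 (adjusted p = 0.0231).

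Notch signaling maintains the stem cell pool of muscle. Of its 26 tested genes 14 fell and 3 rose (11.5%, near the 9.86% of all tested genes). Among receptors Notch4 had 258 and 56.6 counts when fresh and 0 and 0.771 after expansion, and the ligand Dll4 went from 399 and 94.7 to 0. Both are endothelial genes as well and were higher in fresh replicate 1. Hey2, a Notch target gene, had 149 and 132 counts when fresh and 0.749 and 0 after expansion, and Bmp6, a BMP ligand that the list also holds, fell from 2691 and 3728 to 87.6 and 126 (-4.85 ± 0.30, edgeR adjusted p = 7.27e-06). The ligand Jag2 and the nuclear effector Rbpj moved the other way, Jag2 from 165 and 99.7 to 1160 and 1004 (3.09 ± 0.29, edgeR adjusted p = 6.65e-05) and Rbpj from 2058 and 1898 to 4098 and 4068 (1.10 ± 0.18, edgeR adjusted p = 0.00175).

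The myogenic regulators of commitment rose. Myod1 (chromosome 7, 46376474 to 46379099, plus strand) went from 637 and 930.2 to 4826 and 4819 normalized counts (2.68 ± 0.24, edgeR adjusted p = 6.07e-05), and Myog (chromosome 1, 134289989 to 134292548, plus strand) from 1328 and 1449 to 11175 and 11841 (3.11 ± 0.48, edgeR adjusted p = 0.00124), with close replicates in both groups. Of the 23 regulators and partners listed, 12 rose and 4 fell (17.4%, near the 16.2% of all tested genes), with a median of 1.96. Tead4, a TEAD factor of differentiating myoblasts, rose from 143 and 107 to 2124 and 2351 (4.22 ± 0.47, edgeR adjusted p = 0.00019) and Smyd1, a muscle histone methyltransferase, from 180.5 and 156 to 2017 and 2335 (3.75 ± 0.30, edgeR adjusted p = 3.15e-05). The Id proteins, which bind and block the partners of Myod1, fell. Id2 went from 872 and 503 to 64.4 and 33.9 (-3.75 ± 0.43, edgeR adjusted p = 0.000226), Id3 from 1093 and 1368 to 165 and 251 and Id1 from 649 and 693 to 206 and 159.6.

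**Figure D3:**
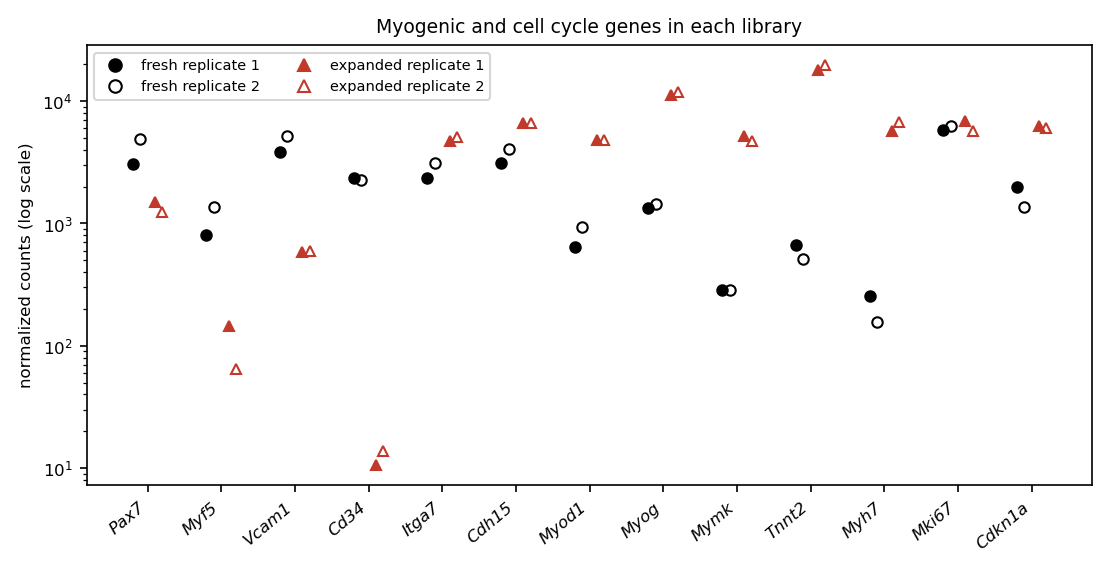
Normalized counts (log scale) of 13 myogenic and cell cycle genes in each fresh (black circles) and expanded (red triangles) teratoma-derived library. Pax7, Myf5, Vcam1 and Cd34 are lower in both expanded libraries, Myod1, Myog, Mymk, Tnnt2 and Myh7 are higher in both, and the Mki67 values of the 2 groups overlap.

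Contractile genes rose together. Of the 51 tested sarcomere genes, 34 were higher and 2 lower after expansion, with a median log2 fold change of 2.68, and their summed share of the counts went from 0.504% and 0.340% in the fresh libraries to 2.44% and 2.47% in the expanded libraries. Tnnt2, the troponin T isoform of heart and developing muscle, rose from 669 and 511 to 18064 and 19611 counts (5.05 ± 0.43, edgeR adjusted p = 3.86e-05). Tnnc1, the slow and cardiac troponin C, rose from 259.7 and 127 to 10581 and 10902 (5.85 ± 0.76, edgeR adjusted p = 0.000455) and Tnni1, slow troponin I, from 286 and 124 to 5556 and 5981 (4.87 ± 0.48, edgeR adjusted p = 9.36e-05). Myh7, the slow myosin heavy chain, went from 253 and 157 to 5691 and 6825 (4.99 ± 0.57, edgeR adjusted p = 0.000226). The perinatal myosin Myh8 was already expressed in fresh cells, with 6018 and 2102 counts against 11423 and 13140 after expansion (1.65 ± 0.79, edgeR adjusted p = 0.152), a difference that passed when only the 4 teratoma-derived libraries were fitted (edgeR adjusted p = 0.0171). These risers included isoforms of slow, cardiac and developing muscle. The 2 lower genes, Mybpc1 and Mybpc2, encode myosin binding proteins, and both lost the call without fresh replicate 1 (edgeR adjusted p = 0.0701 and 0.0862) and without expanded replicate 1 (edgeR adjusted p = 0.14 and 0.0515). Mybpc2 also lost it without either of the other libraries (edgeR adjusted p = 0.0592 and 0.206).

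The myogenic regulators bind E-boxes, and the promoters of the sarcomere list were read for them. The window from 250 bases before to 50 bases after each RefSeq gene start (GRCm38.p6) was searched on both strands for the E-box CAGCTG, which reads the same on either strand. It occurred in 17 of the 49 windows of the sarcomere list (34.7%), which covered 40 of its genes, and in 16.3% of all 32851 windows. The windows of Tnnt2 and Tnni1, both among the sarcomere genes with large rises, are printed 5′ to 3′ on the strand of the gene, with the E-box, 2 in the former and 1 in the latter, in capitals. That of Tnnt2 is chr1:135836084-135836383 on the plus strand and that of Tnni1 is chr1:135799171-135799470 on the plus strand.
Tnnt2: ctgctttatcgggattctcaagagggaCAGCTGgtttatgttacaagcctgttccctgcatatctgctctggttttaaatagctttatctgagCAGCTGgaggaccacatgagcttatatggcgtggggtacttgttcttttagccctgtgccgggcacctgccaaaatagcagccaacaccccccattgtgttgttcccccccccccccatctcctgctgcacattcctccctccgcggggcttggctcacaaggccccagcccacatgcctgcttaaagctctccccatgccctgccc
Tnni1: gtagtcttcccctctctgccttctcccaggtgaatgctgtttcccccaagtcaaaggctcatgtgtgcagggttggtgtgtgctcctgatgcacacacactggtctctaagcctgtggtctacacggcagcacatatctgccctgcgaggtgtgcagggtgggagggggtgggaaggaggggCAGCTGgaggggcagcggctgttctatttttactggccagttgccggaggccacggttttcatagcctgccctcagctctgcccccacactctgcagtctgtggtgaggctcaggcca
The matches describe the sequence, and no binding was measured.

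The machinery that links excitation to contraction and nerve to muscle rose as well. Of 25 excitation-contraction coupling genes, 17 rose and 1 fell, a fall that lost its call when any 1 of the 4 libraries was left out. Casq2, the calcium store protein of slow and cardiac muscle, rose from 289.5 and 93.5 to 2782 and 3307 (4.05 ± 0.50, edgeR adjusted p = 0.00035) and Scn4a, the muscle sodium channel, from 70.1 and 19.7 to 905 and 851 (4.35 ± 0.62, edgeR adjusted p = 0.000804). Of 18 neuromuscular junction genes, 11 rose and 1 fell. The risers numbered 6 when fresh replicate 2 or expanded replicate 2 was left out, and none fell without fresh replicate 1 or without either expanded replicate. Chrna1 and Chrnd, subunits of the acetylcholine receptor, went from 840.0 and 1005 to 6632 and 6893 (2.93 ± 0.20, edgeR adjusted p = 1.09e-05) and from 79.2 and 57.8 to 1180 and 1274 (4.22 ± 0.36, edgeR adjusted p = 4.37e-05).

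Fusion genes were divided. Of 31 tested, 10 rose and 7 fell, with a median equal to that of all genes at -0.18. The 2 muscle-specific fusogens rose, Mymk (myomaker) from 288 and 283 to 5162 and 4699 (4.16 ± 0.42, edgeR adjusted p = 0.000107) and Mymx (myomixer) from 22.1 and 29.5 to 383 and 438 (4.04 ± 0.53, edgeR adjusted p = 0.000485), as did the membrane repair gene Dysf, from 599 and 292 to 3020 and 2893. Among those that fell were the adhesion gene Kirrel3, from 161 and 236 to 12.7 and 1.54, the transcription factor Nfatc2, from 679 and 818 to 21.7 and 58.6, and the interleukin receptor chain Il4ra, from 1363 and 885 to 308 and 402. The number of falls was 4 without fresh replicate 1 and without either expanded replicate. In the dystrophin complex, which joins the fiber to the matrix, 5 of 21 genes rose and 5 fell. Dag1 (dystroglycan) fell from 19189 and 25132 to 6372 and 6857 and Lama2, its laminin ligand, from 16621 and 21187 to 3275 and 2682. In this complex 3 genes rose without fresh replicate 1 or either expanded replicate, and 3 fell without expanded replicate 2.

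Few proliferation genes passed the test. Mki67, the marker of cycling cells, had 5788 and 6327 counts when fresh and 6929 and 5727 after expansion, and the groups overlapped (0.12 ± 0.35, edgeR adjusted p = 0.83). Of 54 DNA replication genes 2 rose (3.70%, against 9.86% of all tested genes), and none fell in the fit to all 4 groups, at an unadjusted p under 0.05 or in DESeq2. The risers were E2f2, from 402 and 434 to 1709 and 1759, and the ribonucleotide reductase gene Rrm1, from 776 and 977 to 2098 and 2068. When only the 4 teratoma-derived libraries were fitted 6 of the 54 rose and 3 fell, and 5 rose and 1 fell with no filter on low counts. Of 67 mitosis genes 7 rose (10.4%, near the 9.86% of all tested genes) and none fell in edgeR, at an unadjusted p under 0.05 or in DESeq2. Their median was 0.65, and the number of risers rested on the setting. It was 28 when only the 4 teratoma-derived libraries were fitted, and between 1 and 3 when any 1 library was left out. Incenp, of the chromosomal passenger complex, rose from 665 and 661 to 1360 and 1414 (1.12 ± 0.24, edgeR adjusted p = 0.00777). Replication-dependent histones, which total RNA libraries can measure, gave 4 risers of 59 (6.78%, against 9.86% of all tested genes) and a median of 0.07. None of them fell in the fit to all 4 groups or in DESeq2, with 1 lower at an unadjusted p under 0.05. Between 0 and 1 of these rose when a library was left out, whereas 9 rose and 2 fell when only the 4 teratoma-derived libraries were fitted, and 7 rose and 2 fell with no filter.

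Inhibitors of the cell cycle moved in both directions. Of 21 cyclin-dependent kinase inhibitors and senescence genes, 5 rose and 6 fell. Cdkn1a (p21), which halts the cycle at commitment and on p53 activation, rose from 1972 and 1376 to 6253 and 6035 (1.93 ± 0.31, edgeR adjusted p = 0.0016), Cdkn2a (the p16 and p19Arf locus) from 106 and 46.8 to 714 and 845 (3.40 ± 0.47, edgeR adjusted p = 0.000719) and Rb1 from 566 and 527 to 2053 and 1858. Among those that fell were the secreted factors Il6 and Igfbp7, with Il6 at 789 and 552 when fresh and 1.5 and 27.8 after expansion and Igfbp7 at 7724 and 7672 and 267 and 206. The number of risers was 3 when any 1 of the 4 libraries was left out. Of 38 p53 target genes 15 rose (39.5%, against 9.86% of all tested genes) and 6 fell (15.8%, near the 16.2% of all tested genes). Psrc1 rose from 62.3 and 103 to 487 and 529.6 and Gadd45a, a growth arrest gene, from 1596 and 1902 to 4684 and 4599 (1.46 ± 0.23, edgeR adjusted p = 0.00149), while Btg2, also an immediate early gene, fell from 8065 and 7483 to 558 and 486 (-3.84 ± 0.20, edgeR adjusted p = 3.29e-06). The 15 became 10 without either fresh replicate, 8 without expanded replicate 1 and 9 without expanded replicate 2.

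Immediate early genes, transcribed within minutes of a stimulus and known to be induced when muscle tissue is dissociated, were lower as a list. Of 40 such genes 34 were lower and none higher in edgeR, in DESeq2 or at an unadjusted p under 0.05, with a median of -3.81 (-3.60 with genes at the read floor set at their bound), and 34 to 36 were lower under every setting tried. Fosb went from 33356 and 36571 normalized counts to 30.7 and 31.6 (-10.07 ± 0.29, edgeR adjusted p = 4.27e-07). Fos went from 32693 and 35785 to 246 and 189.6 (-7.24 ± 0.27, edgeR adjusted p = 1.37e-06) and the orphan nuclear receptor Nr4a1 from 10672 and 8971 to 171 and 137 (-5.93 ± 0.44, edgeR adjusted p = 1.86e-05). The list held 2.10% and 2.17% of all counts in fresh cells and 0.255% and 0.248% in expanded cells. Fresh cells were also obtained by dissociating and sorting tissue and expanded cells from a dish, and the culture and the isolation cannot be told apart in this comparison.

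Heat shock chaperones moved in both directions. Of 29 chaperones 11 fell and 10 rose. The inducible Hsp70 genes Hspa1a and Hspa1b, near-identical copies whose reads may have been divided between them, went from 19978 and 17548 to 0 and 25.4 (-10.47 ± 0.92, edgeR adjusted p = 4.76e-05) and from 20010 and 19791 to 48.7 and 20.8 (-9.10 ± 0.77, edgeR adjusted p = 3.95e-05). Their cochaperone Dnajb1 fell from 5372 and 5336 to 369.9 and 345 (-3.85 ± 0.18, edgeR adjusted p = 2.48e-06). Among the risers were Hspa9, the mitochondrial Hsp70, from 4466 and 4660 to 20919 and 21440 (2.27 ± 0.21, edgeR adjusted p = 6.35e-05), and the small muscle chaperones Hspb2, from 85.7 and 108 to 681 and 750.1, and Hspb8, from 788 and 486 to 1898 and 1976. The risers numbered 6 without fresh replicate 1, and the falls 6 without expanded replicate 1.

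Most of the extracellular matrix program was lower. Of 43 collagen genes 38 fell and 2 rose, with a median of -4.82 (-4.78 with genes at the read floor set at their bound), and of 66 matrix glycoproteins and proteoglycans 54 fell and 1 rose, with a median of -2.83. Collagens made up 7.07% and 7.58% of all counts in fresh cells and 0.544% and 0.562% after expansion. Col1a1, named here after its values were seen because it was among the most abundant, went from 209379 and 213163 normalized counts to 262 and 121 (-10.05 ± 0.72, edgeR adjusted p = 1.49e-05), while Col1a2, the other chain of type I collagen, named for the same reason, went from 216016 and 223059 to 18965 and 18964 (-3.48 ± 0.48, edgeR adjusted p = 0.0007). Both chains were lower in both expanded libraries. Eln, which encodes elastin, went from 39419 and 41665 to 0 in both expanded libraries, at least 17784-fold lower, and Tnxb (tenascin X) from 5463 and 5148 to 0, at least 2327-fold lower. Col6a5, a chain of the collagen VI family of the satellite cell niche, went from 914 and 1005 to 0.

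Several of these genes are also markers of fibro-adipogenic cells or cartilage. Dcn, Lum and Col15a1 stand in both the matrix and the fibro-adipogenic lists, and the sum of the latter fell from 82453 and 93282 to 309 and 296 counts. The 12 cartilage and bone markers summed to 12108 and 7783 counts when fresh and 346 and 398 after expansion. The part of these cells in the fall of the matrix genes was not tested. The collagen falls numbered 38 under every setting that kept all 4 libraries, and these settings cannot tell the RNA of such cells apart.

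A few matrix genes rose. Col19a1, a collagen of embryonic muscle, went from 40.2 and 28.3 to 1078 and 1210 (5.11 ± 0.28, edgeR adjusted p = 4.38e-06), and Col25a1, a transmembrane collagen of muscle needed for its innervation, from 183 and 148 to 3444 and 3723 (4.49 ± 0.53, edgeR adjusted p = 0.000267). Nid2 (nidogen 2), a basement membrane linker, rose from 3109 and 3189 to 7286 and 6349 (1.17 ± 0.20, edgeR adjusted p = 0.00224). Of 31 integrins and laminins 16 fell and 4 rose (12.9%, against 9.86% of all tested genes). Fewer rose without fresh replicate 1 or without either expanded replicate. Lama4, a laminin chain of vessels and muscle, fell from 4845 and 4586 to 33.7 and 30.1 (-7.15 ± 0.25, edgeR adjusted p = 1.09e-06), while the laminin receptors Itga3 and Itga6 rose from 451 and 456 to 1844 and 1966 and from 1102 and 479 to 3590 and 3794. Of 44 matrix proteases and inhibitors 29 fell and 3 rose. Mmp3 and Adamts8 went from 289.5 and 237 and from 771 and 931 to 0 in both expanded libraries, and Adamts14 rose from 231 and 285 to 857 and 897.

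**Figure D4:**
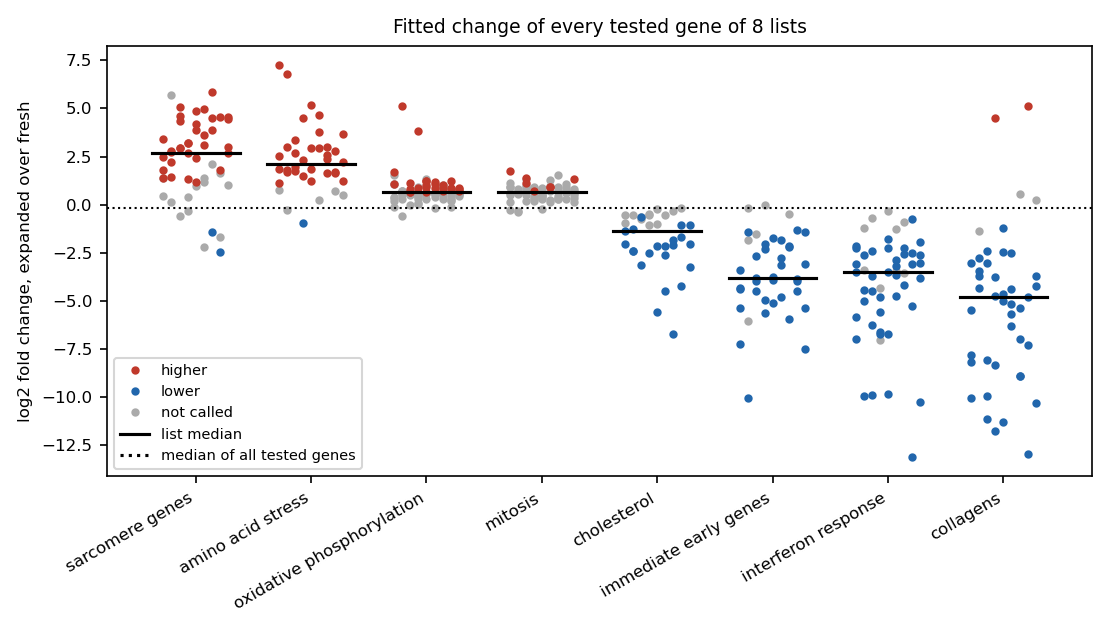
Fitted log2 fold change, expanded over fresh teratoma-derived cells, of every tested gene of 8 lists. Red and blue points are genes called higher and lower, gray points were not called, bars mark list medians and the dotted line the median of all tested genes at -0.18. Medians run from 2.68 for sarcomere genes to -4.82 for collagens, and all called immediate early and interferon genes are lower. For genes with few or no reads in a group the plotted value depends on the prior count of the fit.

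Secreted signals also fell. Of 39 BMP pathway genes 27 were lower, with a median of -2.01, and none was higher in edgeR, while 1 was at an unadjusted p under 0.05, in DESeq2, with no filter on low counts and when only the 4 teratoma-derived libraries were fitted. The ligand Gdf10 went from 1015 and 812 counts to 0 and the ligand Bmp2 from 469 and 156 to 0. Of 29 tested TGF-beta, activin and myostatin genes 13 fell and 1 rose, and 8 fell without expanded replicate 1 or without expanded replicate 2. Lrrc32, which tethers latent TGF-beta to the cell surface, went from 404 and 423 to 0.749 and 3.08 (-7.63 ± 1.01, edgeR adjusted p = 0.000521), and the TGF-beta induced matrix gene Tgfbi from 2819 and 1772 to 1.5 and 14.6 (-8.09 ± 1.13, edgeR adjusted p = 0.000736). The riser was Mstn (myostatin), the inhibitor of muscle growth made by muscle, with 5.19 and 8.61 counts when fresh and 68.9 and 124 after expansion, which did not pass without fresh replicate 1 (edgeR adjusted p = 0.0578).

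Wnt and retinoic acid genes followed the same direction. Of 53 tested Wnt pathway genes 27 fell and 4 rose. The receptor Ror2 went from 361 and 339.6 to 0 and the ligand enhancer Rspo1 from 183 and 62.8 to 0 in both expanded libraries. The risers numbered 1 without fresh replicate 1 or expanded replicate 1, and 2 without either of the other libraries. Lef1, a nuclear effector and one of them, had 74.0 and 34.5 counts when fresh and 537 and 481 after expansion, and missed the threshold without fresh replicate 2 (2.87, edgeR adjusted p = 0.0547). Of 18 retinoic acid genes 12 fell and 1 rose, and 2 rose without fresh replicate 1, in DESeq2, with no filter, with a replicate block and when only the 4 teratoma-derived libraries were fitted. The gene that rose in the fit to all 4 groups was Crabp2, which delivers retinoic acid to its receptor, from 129.8 and 135 to 1284 and 1318 (3.35 ± 0.26, edgeR adjusted p = 2.48e-05).

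Several ligands and binding proteins of growth factor systems were lower. The abundant ligand Igf2, described below, was not called in the fit to all 4 groups. Of 19 tested IGF genes 11 fell and 1 rose, and none rose without fresh replicate 1 or without either expanded replicate. Igf1 fell from 7050 and 8167 to 356 and 375 (-4.32 ± 0.74, edgeR adjusted p = 0.00238), Igfbp2 from 2377 and 2663 to 64.4 and 88.7 (-4.98 ± 0.26, edgeR adjusted p = 3.13e-06) and Igfbp4 from 18667 and 21584 to 1200 and 1217 (-4.00 ± 0.31, edgeR adjusted p = 2.41e-05). Among 20 FGF ligands and receptors 6 fell and 2 rose, and 1 rose without fresh replicate 1 or without either expanded replicate. Fgfr1, a receptor of satellite cells, fell from 7187 and 7995 to 1454 and 1537 (-2.29 ± 0.22, edgeR adjusted p = 7.46e-05). Of 26 ERK feedback and target genes 7 fell (26.9%) and 3 rose (11.5%, near the 9.86% of all tested genes). With only the 4 teratoma-derived libraries fitted, 14 fell. Ccnd1 (cyclin D1) rose from 674 and 438 to 2277 and 1854 (1.95 ± 0.39, edgeR adjusted p = 0.00567) and Epha4, an ephrin receptor, fell from 1375 and 1617 to 58.4 and 90.2 (-4.27 ± 0.38, edgeR adjusted p = 5.48e-05).

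Targets of the mechanosensitive coactivator Yap were split, with 11 of 32 higher and 8 lower, and with 6 or 7 higher when any 1 library was left out. Ankrd1, which is both a Yap target and a titin-binding protein of stressed muscle, rose from 118 and 64.0 to 3585 and 3043 (5.24 ± 0.31, edgeR adjusted p = 5.56e-06), while Ccn2 (CTGF) fell from 3640 and 5497 to 293 and 275 (-3.95 ± 0.59, edgeR adjusted p = 0.00111). In the cytoskeleton and adhesion list, 6 of 42 rose (14.3%) and 7 fell (16.7%), near the 9.86% and 16.2% of all tested genes, and between 3 and 4 rose and between 4 and 5 fell when 1 library was left out. Zyx (zyxin), of focal adhesions, rose from 3844 and 3707 to 18697 and 17524 (2.32 ± 0.22, edgeR adjusted p = 7.86e-05). Of 57 axon guidance genes 26 fell and 8 rose (14.0%, against 9.86% of all tested genes). Fewer rose when any 1 library was left out. The secreted ligand Slit3 went from 2329 and 2367 to 0 and the receptor Plxna4 was at 471 and 458 when fresh and 0.749 and 0 after expansion, whereas Sema3e rose from 154 and 82.4 to 1415 and 1257 (3.55 ± 0.43, edgeR adjusted p = 0.000307) and the netrin receptor Unc5b from 621 and 679 to 2837 and 2449 (2.08 ± 0.31, edgeR adjusted p = 0.00112).

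Developmental genes changed in both directions. Of 23 genes of a fetal growth program 8 fell and 6 rose. Dlk1, a Notch-like fetal growth regulator, fell from 7445 and 7088 to 91.4 and 141 (-5.91 ± 0.38, edgeR adjusted p = 8.92e-06), Mest from 1574 and 1719 to 30.7 and 79.4 (-4.85 ± 0.45, edgeR adjusted p = 6.64e-05) and Plagl1, a zinc finger factor of the imprinted network, from 2384 and 1665 to 24.0 and 21.6 (-6.41 ± 0.40, edgeR adjusted p = 7.27e-06). Sox11, a factor of developing tissues, rose from 1592 and 1091 to 6610 and 6357 (2.33 ± 0.22, edgeR adjusted p = 7.7e-05) and Igf2bp2, an RNA-binding protein of proliferating myoblasts, from 423 and 432 to 1996 and 1873 (2.23 ± 0.20, edgeR adjusted p = 5.12e-05). The number of risers was 3 without fresh replicate 2. Of 44 tested imprinted genes 17 fell and 3 rose. Without expanded replicate 2 the falls numbered 11, and 1 gene rose without fresh replicate 1 or without either expanded replicate. Igf2, the abundant imprinted growth factor, had 80959 and 91152 counts when fresh and 127570 and 128907 after expansion and did not pass the test (0.63 ± 0.41, edgeR adjusted p = 0.276), although it did when only the 4 teratoma-derived libraries were fitted (0.61, edgeR adjusted p = 0.00221). Of 34 tested Hox genes 15 fell, none rose in edgeR, in DESeq2 or at an unadjusted p under 0.05, 7 to 11 fell when 1 library was left out, and Hoxa3 went from 169 and 82.4 to 0.

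Markers of the heart lineage did not share 1 direction. Of 7 tested, 3 rose and 2 fell, and 2 rose and none fell in DESeq2. Without fresh replicate 2 or without expanded replicate 1 the risers numbered 1, and without fresh replicate 1 or expanded replicate 1 the falls numbered 1. The atrial and developmental myosin Myh6 had 145 and 66.4 counts when fresh and 1356 and 1676 after expansion, and Nkx2-5, a homeobox gene of the heart field, 23.4 and 39.4 and 364 and 239.8. Hand2, a heart and limb factor, had 391 and 239 counts when fresh and 0 and 3.85 after expansion, and was not called by DESeq2 (adjusted p = 0.0851). The call of Myh6 was lost without fresh replicate 2 (edgeR adjusted p = 0.0564) and that of Nkx2-5 without expanded replicate 1 (edgeR adjusted p = 0.137). Nes (nestin), listed among neural markers and expressed by myoblasts, rose from 4083 and 3829 to 37654 and 36319 (3.28 ± 0.24, edgeR adjusted p = 1.57e-05), while Gfap, an intermediate filament of glia, went from 1342 and 3499 to 0.

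The interferon program fell as a list. Of 51 interferon response genes 41 were lower and none higher in edgeR, in DESeq2 or at an unadjusted p under 0.05, with a median of -3.53, and 35 to 47 were lower under the other settings. Iigp1, an interferon-induced GTPase, went from 789 and 1294 normalized counts to 0 in both expanded libraries, at least 457-fold lower. Iigp1 was higher in fresh replicate 2 and Trim30a, given below, in fresh replicate 1, and the part of blood cells in this fall was not tested. Gbp2, a guanylate-binding protein, was named after its values were seen as a member that is not at 0. Gbp2 fell from 747 and 892 to 9.73 and 4.63 (-6.75 ± 0.37, edgeR adjusted p = 4.29e-06). Ifit3, which restrains viral RNA and was chosen for its promoter, fell from 618 and 1102 to 6.74 and 6.17 (-6.98 ± 0.62, edgeR adjusted p = 5.17e-05).

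Interferon signaling acts through the interferon-stimulated response element, and its core TTCNNTTTC was searched on both strands of the same promoter windows. It occurred in 25 of the 45 windows of the list (55.6%), which covered 38 of its genes, and in 8.56% of all windows. The windows of Trim30a (chr7:104465144-104465443, minus strand) and Ifit3 (chr19:34583279-34583578, plus strand) are printed on the strand of the gene with each match in capitals, 1 in the former and 3 in the latter. Both genes were called lower and were chosen for the size of their fall among those whose windows hold the core.
Trim30a: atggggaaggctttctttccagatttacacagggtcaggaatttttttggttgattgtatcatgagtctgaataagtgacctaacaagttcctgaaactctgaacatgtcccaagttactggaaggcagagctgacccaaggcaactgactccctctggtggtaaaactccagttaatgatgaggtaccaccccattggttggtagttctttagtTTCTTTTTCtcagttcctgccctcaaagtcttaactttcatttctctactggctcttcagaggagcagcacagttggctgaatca
Ifit3: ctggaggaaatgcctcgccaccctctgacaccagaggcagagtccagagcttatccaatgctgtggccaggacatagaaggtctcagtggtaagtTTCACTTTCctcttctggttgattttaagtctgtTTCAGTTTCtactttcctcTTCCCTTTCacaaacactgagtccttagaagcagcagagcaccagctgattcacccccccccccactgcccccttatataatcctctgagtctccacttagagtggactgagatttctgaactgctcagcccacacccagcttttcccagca
Trim30a itself went from 189.6 and 101 counts to 0, and a match in a window is not a measured site.

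Other immune genes moved with it. Of 23 antigen presentation genes 17 fell and none rose in edgeR, in DESeq2 or at an unadjusted p under 0.05, and 11 fell without expanded replicate 2. The class I genes H2-D1 and H2-K1, which are similar in sequence to other class I genes and may share reads with them, fell from 3342 and 1692 to 141 and 123 (-4.20 ± 0.40, edgeR adjusted p = 7.87e-05) and from 1219 and 1174 to 71.1 and 35.5 (-4.43 ± 0.44, edgeR adjusted p = 0.000103). Of 36 tested chemokines and cytokines 20 fell and none rose in edgeR, while 1 was higher at an unadjusted p under 0.05, in DESeq2, with no filter and when only the 4 teratoma-derived libraries were fitted. Il33 went from 301 and 508 to 0 and was higher in fresh replicate 2, whereas Il1b, made by myeloid cells, had 1825 and 132 and then 0, and Cxcl2 1335 and 92.3 and then 1.5 and 0. Il1b and Cxcl2 were both higher in fresh replicate 1, the library with the higher haematopoietic sum. Of the 14 tested haematopoietic markers 13 fell, and without fresh replicate 1 the number was 6, while the erythroid falls numbered 3 with it and 1 without it. The part of blood cells in these immune genes was not tested.

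The list with the largest share of risers was that of amino acid stress and serine synthesis, the program that the factor Atf4 drives when amino acids run short or mitochondria are under stress. Of its 38 genes 32 rose and 1 fell, with a median log2 fold change of 2.09, and 31 to 34 rose under every other setting, while the 1 fall was lost without fresh replicate 1 and without either expanded replicate. The hormone Fgf21 (chromosome 7, 45613886 to 45615490, minus strand) went from 1.3 and 19.7 normalized counts to 1618 and 1553 (7.26 ± 0.95, edgeR adjusted p = 0.00076). Cth, which makes cysteine from cystathionine, rose from 13.0 and 8.61 to 1128 and 1179 (6.78 ± 0.95, edgeR adjusted p = 0.000724) and the pseudokinase Trib3 from 32.5 and 150.1 to 3496 and 3018 (5.20 ± 0.66, edgeR adjusted p = 0.000411). Slc7a3, a transporter of cationic amino acids, went from 6.49 and 52.9 to 764 and 700.0. These 4 genes were at no more than 150.1 counts in either fresh library and at no less than 700.0 in either expanded one.

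The more abundant members moved too, and the following were named after their values were seen, as steps of the pathway. Asns, the asparagine synthetase, went from 470.0 and 454 to 6095 and 5881 (3.75 ± 0.24, edgeR adjusted p = 9.59e-06), and Phgdh and Psat1, the first enzymes of serine synthesis, from 545 and 687 to 4628 and 4770 and from 454 and 649.6 to 3779 and 3437. Atf4 itself rose less, from 5440 and 5047 to 10735 and 11153 (1.12 ± 0.23, edgeR adjusted p = 0.0059). The aminoacyl-tRNA synthetase Gars rose from 2057 and 2178 to 16472 and 15163 (2.96 ± 0.21, edgeR adjusted p = 1.38e-05). The gene that fell was Cebpb, from 3948 and 3037 to 1713 and 1777 (-0.95 ± 0.24, edgeR adjusted p = 0.0157), which lost its call without fresh replicate 1 (edgeR adjusted p = 0.139), without expanded replicate 1 (edgeR adjusted p = 0.128) and without expanded replicate 2 (edgeR adjusted p = 0.106).

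Atf4 binds amino acid response elements, and the form TTGCATCA was searched in the promoter windows on both strands. It occurred in 7 of the 35 windows of the list (20.0%), which covered 31 of its genes, and in 0.895% of all windows. The windows of Fgf21 (chr7:45615441-45615740, minus strand) and Chac1 (chr2:119350992-119351291, plus strand) belong to called genes with large rises, and they are shown with the element in capitals.
Fgf21: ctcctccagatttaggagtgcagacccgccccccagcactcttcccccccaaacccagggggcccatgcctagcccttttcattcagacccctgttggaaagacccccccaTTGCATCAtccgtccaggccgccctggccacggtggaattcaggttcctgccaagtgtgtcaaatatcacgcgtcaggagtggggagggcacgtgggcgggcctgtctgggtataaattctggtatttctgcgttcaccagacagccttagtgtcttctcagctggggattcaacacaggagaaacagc
Chac1: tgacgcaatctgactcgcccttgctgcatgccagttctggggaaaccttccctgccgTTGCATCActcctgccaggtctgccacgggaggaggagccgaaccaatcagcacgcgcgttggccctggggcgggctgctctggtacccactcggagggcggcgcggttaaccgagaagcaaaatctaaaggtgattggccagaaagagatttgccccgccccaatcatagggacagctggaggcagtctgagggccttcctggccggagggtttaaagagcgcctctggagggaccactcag
Chac1, an enzyme that degrades glutathione, rose from 53.2 and 71.4 to 1251 and 1503 (4.52 ± 0.41, edgeR adjusted p = 5.64e-05). No occupancy of these elements was measured.

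Lipid synthesis moved the other way. Of 35 genes of cholesterol synthesis and uptake 22 fell and none rose in edgeR, in DESeq2 or at an unadjusted p under 0.05, with a median of -1.35, and 17 to 25 fell under the other settings. The desaturase Scd1 fell from 1981 and 3262 to 152 and 116 (-4.24 ± 0.35, edgeR adjusted p = 3.73e-05). The sterol exporters Abca1 and Abcg1, which are induced rather than repressed by sterols, fell as well, from 2625 and 2034 to 124 and 74.0 (-4.50 ± 0.37, edgeR adjusted p = 3.53e-05) and from 387 and 303 to 5.99 and 0 (-6.73 ± 1.15, edgeR adjusted p = 0.00239).

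Some mitochondrial and glycolytic genes rose. Of 79 oxidative phosphorylation genes 25 rose, with a median of 0.66, and none fell in edgeR, while 1 was lower at an unadjusted p under 0.05, in DESeq2 and when only the 4 teratoma-derived libraries were fitted. The number of risers was 43 when only the 4 teratoma-derived libraries were fitted and 8 to 11 when any 1 library was left out. Uqcrq, of complex III, rose from 971 and 946 to 3059 and 2810 (1.67 ± 0.18, edgeR adjusted p = 0.00016) and Cox6a2, the muscle isoform of a complex IV subunit, from 37.7 and 4.92 to 747 and 677 (5.12 ± 1.02, edgeR adjusted p = 0.00532). Of 46 hypoxia and glycolysis genes 14 rose and 8 fell (17.4%, against 16.2% of all tested genes), and 6 to 8 rose when 1 library was left out. Eno3, the muscle enolase, rose from 187 and 217 to 2179 and 2075 (3.45 ± 0.19, edgeR adjusted p = 4.67e-06) and Epas1 (Hif2a), a hypoxia factor also of endothelium, fell from 1716 and 977 to 25.5 and 48.6 (-5.13 ± 0.39, edgeR adjusted p = 1.99e-05).

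Among 36 fatty acid genes 6 fell (16.7%) and 4 rose (11.1%), shares close to the 16.2% and 9.86% of all tested genes. Lpl (lipoprotein lipase) fell from 2959 and 2877 to 617 and 757 (-2.03 ± 0.37, edgeR adjusted p = 0.00335), and Pdk4, which blocks pyruvate oxidation, from 665 and 849 to 73.4 and 149 (-2.71 ± 0.32, edgeR adjusted p = 0.00029). Of 38 antioxidant and metallothionein genes 11 fell and 6 rose, and between 1 and 4 rose when 1 library was left out, the fewest without expanded replicate 1. The extracellular superoxide dismutase Sod3 fell from 3316 and 4284 to 8.99 and 19.3 (-8.01 ± 0.89, edgeR adjusted p = 0.000193), and Gpx4, which protects membranes from lipid peroxides, rose from 1213 and 974 to 2450 and 2691 (1.29 ± 0.21, edgeR adjusted p = 0.00156).

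Some factors that build ribosomes rose. Of 35 genes of ribosome biogenesis and the Myc family 18 rose and 4 fell (11.4%, against 16.2% of all tested genes). Fewer rose when any 1 library was left out, and fewer fell without expanded replicate 2. Nop56, a core protein of box C/D snoRNPs, rose from 1115 and 1443 to 3571 and 3467 (1.51 ± 0.21, edgeR adjusted p = 0.000719) and Rrs1 from 369 and 438 to 1069 and 1241 (1.57 ± 0.21, edgeR adjusted p = 0.000491), whereas Myc fell from 2228 and 2596 to 898 and 816 (-1.44 ± 0.25, edgeR adjusted p = 0.00251). Among 79 cytosolic ribosomal protein genes 1 rose and 1 fell, Rpl27 and Rpl34, and neither passed without expanded replicate 1 (edgeR adjusted p = 0.135 and 0.119). When only the 4 teratoma-derived libraries were fitted, 14 ribosomal protein genes rose and 4 fell. Of 15 tested DNA methylation genes 3 rose and 3 fell. Tet1, which oxidizes methylcytosine, fell from 692 and 612 to 96.6 and 77.1 (-2.85 ± 0.32, edgeR adjusted p = 0.000216), Dnmt3a from 2694 and 2327 to 608 and 759 (-1.82 ± 0.20, edgeR adjusted p = 0.000174), and Zfp57, a keeper of imprints, rose from 152 and 130.4 to 592 and 538 (2.06 ± 0.38, edgeR adjusted p = 0.00379).

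Over all genes, the 12 largest called rises at a level of at least 200 normalized counts were Fgf21, Cdsn, Cth, Extl1, Tnnc1, Ankrd1, Trib3, Cox6a2, Col19a1, Tnnt2, Myh7 and Dbndd1. Most were described above. Cdsn (corneodesmosin), a skin adhesion protein, had 6.49 and 0 counts when fresh and 519.7 and 351 after expansion. The 12 largest falls by the fitted value, which for genes without reads depends on the prior count of the fit, all ended at 0 in both expanded libraries. They were Eln, Tnxb, Dpt, H19, Cym, Gfap, Ltf, Slit3, Smoc2, Edn3, Rgs5 and Itgbl1. Cym and Ltf were higher in fresh replicate 1, with 4312 and 1098 and 4072 and 662 counts, while Edn3 (endothelin 3) was level between the fresh libraries at 1553 and 1812. The imprinted RNA H19 was also higher in fresh replicate 1, with 4740 and 1299 counts. In satellite cells H19 went the other way, from 656 and 490.3 to 126010 and 281167, and the difference between the changes was called lower in teratoma-derived cells (edgeR adjusted p = 9.17e-05).

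Chromosomes were compared by their medians. Over genes of at least 50 mean normalized counts, chromosome medians of the log2 fold change ran from -0.03 (chromosome 18) to 0.21 (chromosome 4), with -0.12 for the X. The 3 Y-linked genes of that level had a median of -5.10. Ddx3y went from 915 and 959.7 to 8.24 and 30.1 counts (-5.56 ± 0.45, edgeR adjusted p = 3.18e-05) and Uty from 229 and 210.4 to 8.24 and 3.85 (-5.10 ± 0.43, edgeR adjusted p = 3.92e-05). The E14 line is male, and Xist, transcribed from an inactive X of female cells, had 199.9 and 20.9 counts in the fresh and 5.99 and 10.02 in the expanded libraries. Its call was lost without fresh replicate 1 (-1.30, edgeR adjusted p = 0.505), without expanded replicate 1 (edgeR adjusted p = 0.157) and without expanded replicate 2 (edgeR adjusted p = 0.0985).

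Equally cultured satellite cells allow a reading of which changes differ by origin. In satellite cells 3677 genes (20.9%) were higher and 3475 (19.8%) lower after expansion. Of the 2848 genes lower in teratoma-derived cells, 1724 were lower in satellite cells as well, which is 60.5% of the first list and 49.6% of the second. Of the 1733 higher genes, 1115 were higher in both, 64.3% of the first list and 30.3% of the second. The difference between the changes was tested as an interaction term, and it was higher in teratoma-derived cells for 826 genes (4.7%) and lower for 1691 (9.62%). The 2 comparisons have no sample in common.

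**Figure D5:**
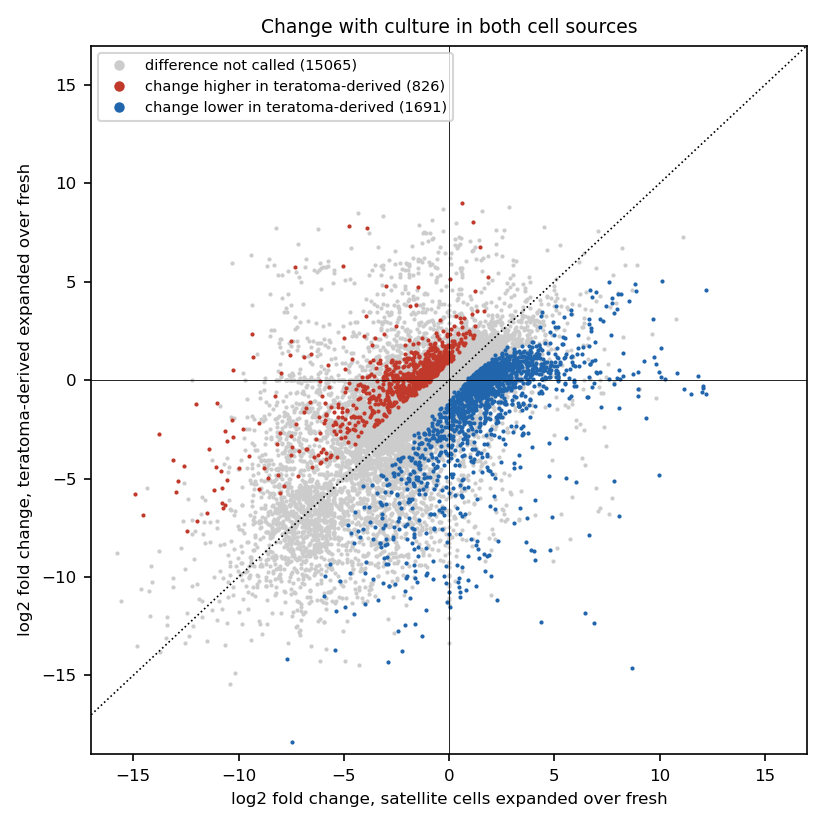
Log2 fold change with expansion in teratoma-derived cells (vertical) against that in satellite cells (horizontal) for all 17582 tested genes, 1 point a gene. Red marks 826 genes whose change was higher in teratoma-derived cells, blue 1691 genes whose change was lower, and gray the genes whose difference was not called. The dotted line is equality. Values far from 0 belong to genes with few or no reads in a group and depend on the prior count of the fit.

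The change with culture was lower in teratoma-derived than in satellite cells for many cell cycle, sarcomere and oxidative phosphorylation genes. Of the 67 mitosis genes, 61 rose in satellite cells against 7 in teratoma-derived cells, and the difference was called lower for 52. Of the 59 replication-dependent histones it was called lower for 51, and of the 79 oxidative phosphorylation genes for 35. Mki67 had 229 and 236 counts in fresh and 10503 and 4177 in expanded satellite cells, and 5788 and 6327 in fresh teratoma-derived cells (interaction -5.05 ± 0.52, edgeR adjusted p = 0.000481). The fresh values of the teratoma-derived cells lay between the 2 values of expanded satellite cells. Of the 51 sarcomere genes the difference was lower for 24. Tnnt2 had 11.5 and 12.5 counts in fresh and 6722 and 16830 in expanded satellite cells.

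Several amino acid stress genes rose further in teratoma-derived cells. The difference was called higher for 17 of the 38 and lower for 1, and 20 of the list rose in satellite cells against 32. Cth reached 1128 and 1179 counts in expanded teratoma-derived cells and 88.7 and 55.8 in expanded satellite cells (interaction 5.30 ± 1.18, edgeR adjusted p = 0.0168). In the matrix lists the difference was called lower for 25 of 43 collagens and 33 of 66 glycoproteins. Immediate early and interferon genes fell in both origins, in 34 and 35 of 40 and in 41 and 41 of 51. The difference was called higher for 8 and lower for 4 of the immediate early genes, and higher for 7 and lower for 3 of the interferon genes, against 4.7% higher and 9.62% lower over all tested genes. For Fos the difference was -0.29 ± 0.30 (edgeR adjusted p = 0.599) and for Fosb 0.68 ± 0.33 (edgeR adjusted p = 0.206), neither called.

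Pax7 RNA fell in both origins. It had 4046 and 4581 counts in fresh and 1743 and 1174 in expanded satellite cells, and the difference of the changes was -0.11 ± 0.38 SE (edgeR adjusted p = 0.929), which does not show that they are equal. For PAX7 protein, the paper reports a fall with expansion in satellite cells and not in teratoma-derived cells.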

How the data were processed

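RNA of 8 libraries, 2 biological replicates in each of 4 groups, had been isolated with RNeasy columns, made into stranded total RNA libraries (SMARTer Pico) and sequenced. The authors deposited expected counts per gene symbol, and the submitters' processing notes name CASAVA and kallisto 0.44.0 with GRCm38 and mm10. Estimated counts were rounded to whole numbers. One edgeR 4.0.16 quasi-likelihood model (R 4.3.3) was fitted to all 4 groups with filterByExpr and TMM scaling, without a replicate term. Genes were called at a Benjamini-Hochberg adjusted p below 0.05 and a change of more than 1.25-fold. Normalized counts are the counts divided by median-ratio size factors. A group was taken as at the floor with at most 3 reads in each library. The test was first checked on simulated data. DESeq2 1.42.0 and the settings given with the limits were alternatives.

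The gene lists, and the choice of this comparison, were made with earlier results of these data known. Lists are described by counts and medians, without set tests. Named genes were 10 anchors, the 12 largest called changes per direction at 200 or more mean normalized counts in the higher group without overlap between groups (no predicted genes), up to 4 called genes per direction and list at 50 or more, the 8 largest called interactions per direction at 200 or more in the highest group mean (no predicted genes, no group at the floor), and Y-linked genes with Xist. Genes named outside this rule after their values were seen were Pdgfra, Nanog, Igf2, Chac1 and those said to be so in the text. Some named genes are not reported here. Replicate numbers were not taken as pairs, since nothing in the labels says that they pair the libraries. The deviations of same-numbered fresh and expanded libraries correlated at r = -0.0149 across genes, which cannot settle it with 2 replicates a group. Totals lay between 11930961 and 19198820 counts in the teratoma-derived libraries. Gene positions are from GENCODE M21 (GRCm38) and promoter windows of 300 bases from RefSeq (GRCm38.p6).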

Additional observations from a re-analysis of the deposited data

Results flagged for a closer look

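The change with expansion differed between teratoma-derived and satellite cells, by the interaction term of the edgeR fit, for 826 genes that were higher and 1691 that were lower in the teratoma-derived cells. The genes below are the 8 with the largest difference in each direction among called genes that reach a group mean of 200 normalized counts, are not predicted genes and have no group at the floor of 3 reads a library, which leaves out larger fitted values such as that of H19. In these values a positive number means a higher change in teratoma-derived cells, on the log2 scale. The muscle hormone gene Erfe differed by 8.87, with 81.8 and 38.1 normalized counts in fresh and 123 and 160.4 in expanded teratoma-derived cells and 27874 and 32438 and then 142 and 136 in satellite cells. The pentraxin gene Ptx3 differed by 7.92, Avil by 7.21, the muscle cofactor gene Vgll2 by 7.09, Atp2b3 by 6.29, the fatty acid transporter gene Cd36 by 5.67, Stum by 5.64 and the chemokine gene Cxcl1 by 5.63. Cd36 had 140.2 and 64.0 counts in fresh and 157 and 254 in expanded teratoma-derived cells, against 879 and 1338 and 8.58 and 72.1 in satellite cells.

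In the other direction, Igfbp2, an IGF binding protein, differed by -10.54, with 2377 and 2663 counts in fresh and 64.4 and 88.7 in expanded teratoma-derived cells and 6.37 and 5.7 and then 270.4 and 237 in satellite cells. The imprinted gene Mest differed by -9.57, with 1574 and 1719 and then 30.7 and 79.4 against 506 and 826 and then 18373 and 12626. Add2 differed by -9.88, Nrep by -9.26 and Car3, a muscle carbonic anhydrase, by -8.51. The perinatal myosin Myh8 differed by -8.41, from 52.2 and 0 to 11560 and 35430 counts in satellite cells. The replication-dependent histones Hist1h1b and Hist1h2an, whose near-identical copies may share reads, differed by -9.76 and -8.59.

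Among the anchor genes Myod1 differed by 2.05, Spry1 by 2.25, Myog by -6.58 and Mki67 by -5.05. Myod1 rose from 637 and 930.2 to 4826 and 4819 in teratoma-derived cells and was at 6767 and 8837 in fresh and 10502 and 10701 in expanded satellite cells. Myog was at 8.92 and 14.8 in fresh and 3993 and 13510 in expanded satellite cells. Of the 326 other named genes the difference was called for 120, and over all tested genes it was called higher for 4.7% and lower for 9.62%. Most of the 326 were chosen for large called changes in teratoma-derived cells, which are part of the difference. Their count therefore cannot be compared with these shares.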

How the results depend on the processing

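No result reversed under any alternative tried. Of 352 named genes 82 changed their call under at least 1 alternative, with 41 to 48 losing it when any 1 of the 4 libraries was left out and 1 to 14 under the others. The number of genes higher after expansion, 1733, was 811 to 1064 when 1 library was left out (1064 without fresh replicate 1, 940 without fresh replicate 2, 840 without expanded replicate 1, 811 without expanded replicate 2) and 2667 with only the 4 teratoma-derived libraries. The number lower, 2848, was 1919 to 2334 when 1 library was left out. Between 46.7% and 54.0% of the higher and between 64.8% and 77.0% of the lower calls were kept without 1 library, where the lone sample left in a group is taken to vary like the others. Interaction counts, 826 higher and 1691 lower, were 457 to 569 and 1010 to 1247 without 1 library, and the 826 were 1284 without the filter on low counts and 1544 in DESeq2. With a replicate block the calls numbered 1609 higher and 2712 lower, and the interaction 758 and 1569. The labels do not say whether equal replicate numbers pair the libraries. Same-numbered deviations correlated at r = -0.0149, which cannot settle it with 2 replicates a group. The first principal component carried 64.1% of the variance after scaling and 95.6% over the 500 most variable genes. With 2 replicates a group, and with 696 of the lower genes at no more than 3 reads in each expanded library, the size of the largest falls is known only as a bound.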
